A study of Mus musculus with 36 samples.

Results

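The genes described here encode the ephrin, semaphorin, Slit and netrin guidance cues and their receptors, in mouse muscle stem cells (MuSCs), also called satellite cells, from which injured muscle fibres are rebuilt. They were chosen by gene symbol alone: every ephrin, Eph receptor, class 3 to 7 semaphorin, plexin, neuropilin, Slit, Robo, netrin and Unc5 symbol in the deposited table was taken, which gave 40 of its 11337 genes. The GENCODE M21 annotation holds 68 such names, and the other 28 were not analysed here. Ephrins and Eph receptors signal between touching cells, often in both directions, and are known for repulsion and boundary formation. Secreted class 3 semaphorins bind neuropilins, which signal with plexins, whereas most membrane semaphorins bind plexins directly. Slits act through Robo receptors, and netrins through Unc5 receptors among others. In muscle these cues guide motor axons and vessels, and satellite cells have been shown to carry Eph receptors and plexins and to secrete semaphorins.

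Polyadenylated RNA was sequenced from MuSCs of 36 male mice labelled as strain C56BL/6 (C57BL6 in the series' design text), with 1 library per mouse. In 21 mice of the wheel cohort, the cage held a wheel for 3 weeks and hindlimb MuSCs were sorted as live VCAM+ cells negative for CD31, CD45 and Sca1; 6 mice aged 3 months had a locked wheel, Y(-Ex), 3 a free wheel, Y(+Ex), and of the mice aged 18 months 7 had a locked wheel, O(-Ex), and 5 a free wheel, O(+Ex). All 15 mice of the Ccnd1 cohort carried Pax7-CreERT2, which drives a tamoxifen-inducible Cre in Pax7-expressing cells, and the R26R-YFP reporter, all received tamoxifen, and live YFP+ cells were sorted 6 weeks later. They were 3 young mice with intact Ccnd1, Y(WT), 4 young with 1 floxed copy, Y(HET), 5 young with both copies floxed, Y(KO), and 3 old with intact Ccnd1, O(WT).

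Values are RPKM (reads scaled to gene length and library size), summing to 273837 to 350969 per library over the table, and the number of reads behind each value is unknown. All 12 satellite cell markers looked at were measured, with Pax7 at 14.2 to 32.5 and Myod1 at 368 to 1079 RPKM across libraries. The targeted gene Ccnd1 was at 2.07 to 3.40 RPKM in Y(KO), 6.37 to 8.13 in Y(HET) and 10.6 to 13.3 in Y(WT). Transcripts of cells that the gate of the wheel cohort should leave out were also present. Over all 36 libraries Pecam1, which encodes CD31, was never below 9.11 RPKM and Ly6a, which encodes Sca1, never below 40.4. Ptprc, which encodes CD45, was not measured, and the Ccnd1 cohort was sorted on YFP. In bulk RNA, fewer cells of a type and less RNA per cell cannot be told apart. The deposited log2 values lack 6 of the 35 directions in which 36 libraries can differ. Of the contrast between the cohorts' age differences 89.4% lies in them, so the cohorts are not independent measures of age. The standard errors (SE), intervals and adjusted p given here describe the values as deposited and may understate the spread between mice.

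Most guidance genes were transcribed at low to middle levels, and the netrins led them. Ntn4, a laminin-related netrin of basement membranes, had the highest mean over all libraries at 39.4 RPKM, followed by the transmembrane semaphorin Sema6a at 25.5 and the netrin Ntn5 at 24.2. The plexin Plxnb2, a receptor of class 4 semaphorins, had a mean of 15.0 RPKM, and 2 semaphorins of that class, Sema4c and Sema4d, had means of 13.4 and 1.81. Of the 40 genes, 37 had a mean of at least 1 RPKM, 16 of at least 5 and 0 of at least 50, against 94.7%, 55.7% and 8.49% of all genes in the table.

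Within each family 1 or 2 members carried most of the signal. Among ephrins, Efna1, the A-type ligand anchored by a lipid tail, had a mean of 12.9 RPKM, and the transmembrane ligand Efnb2 7.89. Among Eph receptors, Ephb4, the partner of Efnb2 in vessel development, had 9.54 and Epha2 7.87, and each of the other 5 had a mean of 1.40 to 3.17 RPKM. Sema3b had 12.4 RPKM, whereas the other class 3 semaphorins, Sema3f, Sema3g and Sema3c, had 3.15, 1.31 and 0.686. Sema3b and Sema3f lie 72.3 kb apart on chromosome 9 (mm10). The neuropilin Nrp1 had 8.73 RPKM against 1.96 for Nrp2, and Robo1, a Slit receptor, had 8.04. The only Slit in the table, Slit3, had 1.04, and the netrin receptors Unc5b and Unc5a had 1.35 and 0.936.

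The genes also differed in how tightly mice of a group agreed. The pooled standard deviation within groups on the log2 scale was 0.11 for Plxnb2, 0.13 for Sema6a and 0.16 for Robo1, and the highest library for Robo1 exceeded the lowest 1.51 times. It was 0.80 for Sema7a, the lipid-anchored semaphorin, 0.68 for Sema6c, 0.65 for Slit3 and 0.62 for Unc5a, all with means near or below 1 RPKM, and for Sema7a the highest library was 16.4 times the lowest. In the authors' deposited table, which gives each gene a correlation coefficient with Ccnd1, the genes ranged from -0.63 for Nrp2, -0.56 for Efnb2 and -0.55 for Sema3f to 0.50 for Sema4f, 0.52 for Sema3b and 0.65 for Plxnb2.

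**Figure D1:**
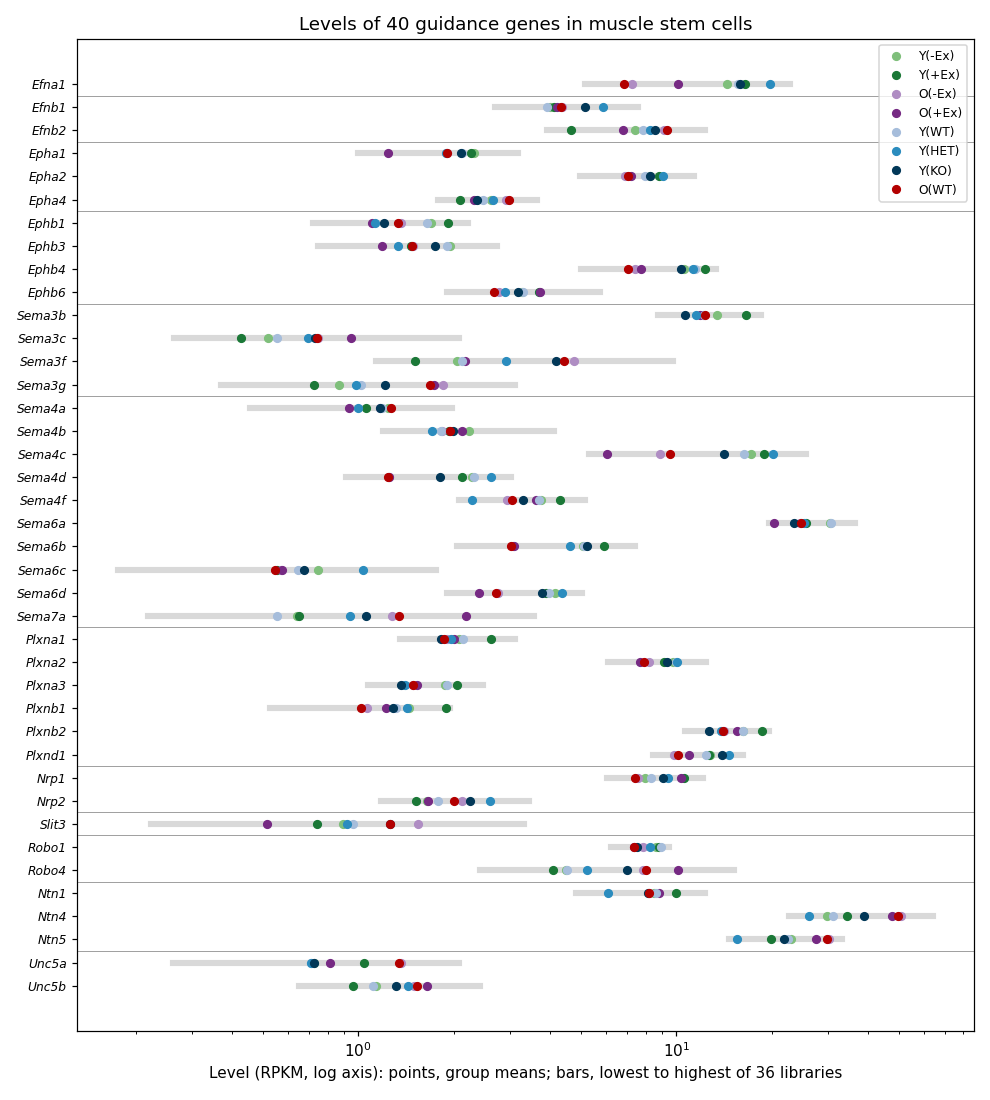
Level of each of the 40 genes in RPKM on a log axis, grouped by family; points are the means of the 8 groups and grey bars run from the lowest to the highest of the 36 libraries. Ntn4, Sema6a and Ntn5 are the most abundant, and the bars are longest for Sema7a, Slit3 and Sema6c.

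MuSCs of old and young mice with a locked wheel differed in 15 of the 40 genes (limma on log2 RPKM, Benjamini-Hochberg adjusted p under 0.05 over all 11337 genes), with 6 higher and 9 lower in old mice. Of all genes 38.3% were called in this comparison, 20.5% higher and 17.8% lower, so the share of guidance genes called is near the background. By family, with no test between families, 5 of 10 membrane semaphorins, 2 of 6 plexins, the ephrin Efna1 and the receptor Ephb4 fell, whereas 2 of 4 class 3 semaphorins, 2 of 3 netrins, Robo4 and Unc5a rose. No EphA receptor, B-type ephrin, neuropilin or Slit was called, and the membrane semaphorin Sema7a had a positive difference that was not called. The median difference over the 40 genes was -0.17 on the log2 scale and over all genes 0.01. In the Ccnd1 cohort, O(WT) against Y(WT), 8 of the 40 were called, 2 higher and 6 lower, against 15.8% of all genes, 8.03% higher and 7.76% lower. They were 4 membrane semaphorins, Efna1 and Ephb4 (lower), and Ntn4 and Robo4 (higher), while 0 of 6 plexins and 0 of 4 class 3 semaphorins were called. These 8 were 53.3% of the 15 and all had the same direction. Since the controls of the cohorts were made alike before deposit (92.0% of the contrast between the young controls and 96.0% of that between the old ones lie in the removed directions), the second set of values is given beside the first and not as support for it.

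**Figure D2:**
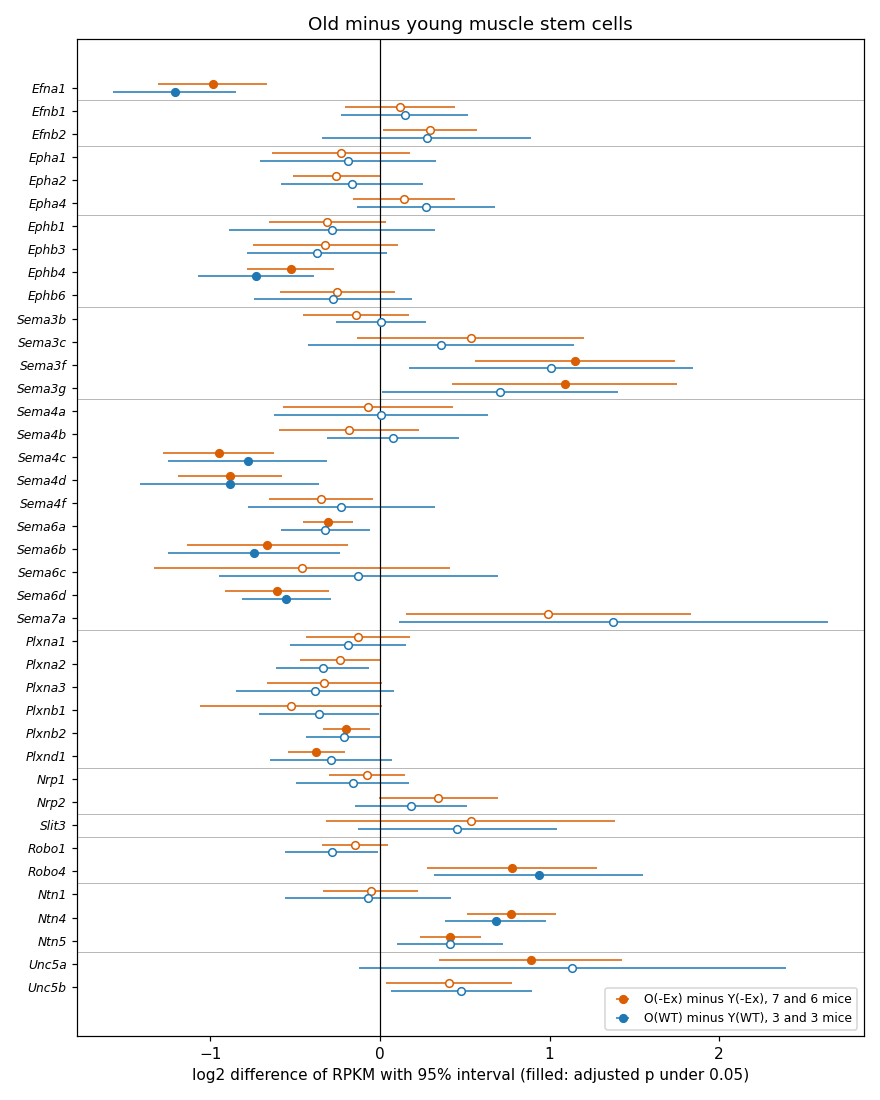
Difference between old and young mice in log2 RPKM for each gene with its 95% interval, for O(-Ex) against Y(-Ex) (7 and 6 mice) and O(WT) against Y(WT) (3 and 3 mice); filled points have an adjusted p under 0.05. Efna1, Sema4c, Sema4d and Ephb4 lie left of 0 and Ntn4 and Robo4 right of it in both.

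Efna1 (ENSMUSG00000027954, mm10 chromosome 3, 89271733 to 89281142, minus strand) was at 8.66 RPKM in the lowest Y(-Ex) library, with a median of 15.2 and a highest value of 17.4, and at 5.31, 7.05 and 10.1 in O(-Ex). Only 1 young library, at 8.66, reached into the range of the old ones. The difference was -0.99 ± 0.15 (log2, SE), or 1.98-fold lower in old mice (adjusted p = 4.5e-05, limma). The Y(WT) libraries had 13.9, 16.3 and 16.8 RPKM and the O(WT) libraries 8.07, 7.36 and 5.16. These groups did not overlap, as was the case for 17 of the 40 genes and 37% of all genes in that cohort, and the difference was -1.21 ± 0.17 (adjusted p = 0.001).

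Ephb4 (ENSMUSG00000029710, chromosome 5, 137350109 to 137378669, plus strand), a receptor of B-type ephrins, had 9.30 RPKM as its lowest, 10.2 as its median and 12.9 as its highest value in Y(-Ex), and 5.26, 6.95 and 10.4 in O(-Ex). It fell by 0.53 ± 0.13 on the log2 scale (adjusted p = 0.0022), with overlapping groups. Ephb4 had 11.3, 12.6 and 10.5 RPKM in Y(WT) and 8.97, 7.23 and 5.01 in O(WT). With no overlap, as for 17 of the 40 genes and 37% of all genes there, Ephb4 had a difference of -0.73 ± 0.16 (adjusted p = 0.0088). Its best known ligand Efnb2 was not called in either age comparison, at 0.30 [0.02, 0.57] (95% interval) in the wheel cohort (adjusted p = 0.083) and 0.28 [-0.34, 0.89] in the Ccnd1 cohort.

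Of the 5 class 4 semaphorins, Sema4c and Sema4d were called in both cohorts, and Sema4f (-0.35 and -0.23), Sema4b (-0.18 and 0.08) and Sema4a (-0.07 and 0.00) in neither. Sema4c (ENSMUSG00000026121, chromosome 1, 36548639 to 36558349, minus strand), a Plxnb2 ligand that is known to increase during myogenic differentiation, ran from 13.1 over a median of 16.5 to 25.6 RPKM in Y(-Ex), and from 6.85 over 8.50 to 13.6 in O(-Ex). The groups touched only through the highest old library, and Sema4c fell by 0.95 ± 0.16 (log2, adjusted p = 8.2e-05). Y(WT) libraries had 12.4, 18.9 and 17.8 and O(WT) libraries 12.0, 9.05 and 7.61, a difference of -0.78 ± 0.22 (adjusted p = 0.028) that stayed called in 2 of 6 omissions of 1 library, without Y(WT) replicate 1 and without O(WT) replicate 1.

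Sema4d, a ligand of B-type plexins, was at 1.83, 2.36 and 2.56 RPKM (lowest, median, highest) in Y(-Ex) and at 0.914, 1.25 and 1.54 in O(-Ex). Every old library lay below every young one. Groups did not overlap, in either direction, for 2 of the 40 genes (Plxnd1 was the other) and 12.4% of all genes. The difference of Sema4d was -0.88 ± 0.15 (adjusted p = 8.2e-05). In Y(WT) and O(WT) the levels were 3.02, 1.72 and 2.17 against 1.12, 1.60 and 1.00, a difference of -0.89 ± 0.25 (adjusted p = 0.027) that was not called without Y(WT) replicate 1 or 3 or without O(WT) replicate 1 or 3. Its low level makes the value depend on the scale: with 1 RPKM added before taking logs the differences were -0.55 in both cohorts, and both stayed called.

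Of the 4 class 6 semaphorins, which bind A-type plexins, Sema6a, Sema6b and Sema6d were called lower in the wheel cohort and Sema6b and Sema6d in the Ccnd1 cohort. Sema6c had -0.46 ± 0.42 (adjusted p = 0.41) and -0.13 ± 0.39 (adjusted p = 0.85). Sema6d ran from 3.03 over 4.15 to 5.07 RPKM in Y(-Ex) and from 2.04 over 2.71 to 3.73 in O(-Ex), and fell by 0.61 ± 0.15 (log2, adjusted p = 0.0028). Sema6d had 3.80, 3.98 and 4.14 in Y(WT) and 2.48, 2.75 and 2.91 in O(WT), a difference of -0.55 ± 0.12 (adjusted p = 0.0095). These groups did not overlap, as for 17 of the 40 genes and 37% of all genes in that cohort. Sema6b changed by -0.67 ± 0.23 (adjusted p = 0.025) and -0.74 ± 0.24 (adjusted p = 0.047; lost in 4 of 6 omissions, without Y(WT) replicate 2 or 3 or O(WT) replicate 2 or 3), and Sema6a by -0.31 ± 0.07 (adjusted p = 0.0020) in the wheel cohort. Between O(WT) and Y(WT), Sema6a had a difference of -0.32 [-0.58, -0.06] that was not called (adjusted p = 0.085). The wheel cohort call of Sema6b was lost without O(-Ex) replicate 1 or Y(-Ex) replicate 2, 5 or 6. The other 5 membrane semaphorins were not called in the wheel cohort. Sema7a was the nearest to the threshold, at 0.99 ± 0.41 (adjusted p = 0.058).

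Both called plexins were among the abundant ones. Plxnd1, known as a receptor of class 3 semaphorins in vessels, ran from 11.6 over 12.4 to 15.5 RPKM in Y(-Ex) and from 8.42 over 9.81 to 11.5 in O(-Ex), without overlap. It fell by 0.38 ± 0.08 (log2, adjusted p = 0.00097), and Plxnb2 fell by 0.20 ± 0.07 (adjusted p = 0.023), a call lost without O(-Ex) replicate 5 or Y(-Ex) replicate 3. In the Ccnd1 cohort their differences were -0.29 [-0.65, 0.07] and -0.21 [-0.44, 0.01] and neither was called. All 6 plexins had negative differences in both cohorts, from -0.13 (Plxna1) to -0.52 (Plxnb1) in the wheel cohort.

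Of the cues that were higher in old mice, Ntn4 (ENSMUSG00000020019, chromosome 10, 93640681 to 93747207, plus strand) was the most abundant. It ran from 23.6 over 29.4 to 40.6 RPKM in Y(-Ex) and from 38.5 over 51.9 to 62.0 in O(-Ex), so that only the highest young library exceeded the lowest old one. It rose by 0.78 ± 0.13 (log2), or 1.71-fold (adjusted p = 6.9e-05). Y(WT) libraries had 29.6, 35.3 and 28.2 RPKM and O(WT) libraries 48.0, 44.3 and 57.5, a difference of 0.68 ± 0.14 (adjusted p = 0.0059). These groups did not overlap, as for 17 of the 40 genes and 37% of all genes in that cohort.

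Ntn5, a short netrin, ran from 19.1 over 21.4 to 30.1 RPKM in Y(-Ex) and from 28.5 over 30.1 to 33.2 in O(-Ex), and rose by 0.42 ± 0.09 (adjusted p = 0.0008). The young libraries were spread widely while the old ones lay close together. Ntn5 had 23.7, 23.7 and 19.7 in Y(WT) and 30.7, 30.0 and 28.5 in O(WT), a difference of 0.41 ± 0.15 that did not pass (adjusted p = 0.068). These groups did not overlap, as for 17 of the 40 genes and 37% of all genes in that cohort. The third netrin, Ntn1, the classical axon attractant, had -0.05 [-0.33, 0.23] and -0.07 [-0.56, 0.42].

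The receptors Unc5a and Robo4 and 2 secreted semaphorins completed the list of increases. Sema3f, a ligand preferring Nrp2, ran from 1.17 over 2.03 to 2.99 RPKM in Y(-Ex) and from 2.58 over 3.74 to 9.73 in O(-Ex), and rose by 1.15 ± 0.28 (log2, adjusted p = 0.0030). The lowest old libraries overlapped the highest young ones, and the old libraries were spread more widely. Unc5a ran from 0.406 over 0.705 to 1.06 and from 0.749 over 1.50 to 2.07, and rose by 0.89 ± 0.26 (adjusted p = 0.01), or by 0.44 with 1 RPKM added before taking logs. Sema3g rose by 1.09 ± 0.32 (adjusted p = 0.01). In the Ccnd1 cohort the differences of Sema3f (1.01 ± 0.39), Unc5a (1.14 ± 0.59) and Sema3g (0.71 ± 0.33) were not called.

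Robo4, a Robo family receptor known from endothelium, rose by 0.78 ± 0.24 in the wheel cohort (adjusted p = 0.014). Its level was 4.54, 6.66 and 2.41 RPKM in Y(WT) and 8.73, 6.90 and 8.47 in O(WT), a difference of 0.94 ± 0.29 (adjusted p = 0.041). The lowest young library weighed most: without Y(WT) replicate 3 the difference was 0.54 (adjusted p = 0.14). Of the 6 omissions of 1 library, the call held in 1, without Y(WT) replicate 2 (1.27, adjusted p = 0.011), and was lost in the other 5. Robo1 differed by -0.15 [-0.34, 0.05] and -0.28 [-0.56, -0.01].

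Markers of other cell types were counted for age in the wheel cohort as well, where 20.5% of all genes were higher and 17.8% lower. The summed level of 10 fibro-adipogenic markers was 247 to 303 RPKM in Y(-Ex) and 384 to 461 in O(-Ex), with 4 higher and 1 lower. The 9 measured myofibre markers summed to 134 to 709 and 55.3 to 194 (3 lower), and the 9 keratinocyte markers to 6.17 to 9.81 and 14.4 to 21.6 (4 higher). The 12 endothelial markers summed to 140 to 199 and 149 to 213 (3 higher, 1 lower), and of 7 Schwann cell markers 3 were higher. Of 10 haematopoietic markers 0 were called, and of 10 pericyte and smooth muscle markers 1 was higher and 1 lower. Of the 12 satellite cell markers themselves 1 was higher and 5 were lower. The part of these markers in the differences of the guidance genes was not tested.

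The count in the Ccnd1 cohort rested on few mice: it was 4 when only the 2 groups compared entered the fit, and 4 without Y(WT) replicate 3 or without O(WT) replicate 3. Efna1, Ntn4, Ephb4 and Sema6d remained called there whichever single library was left out.

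**Figure D3:**
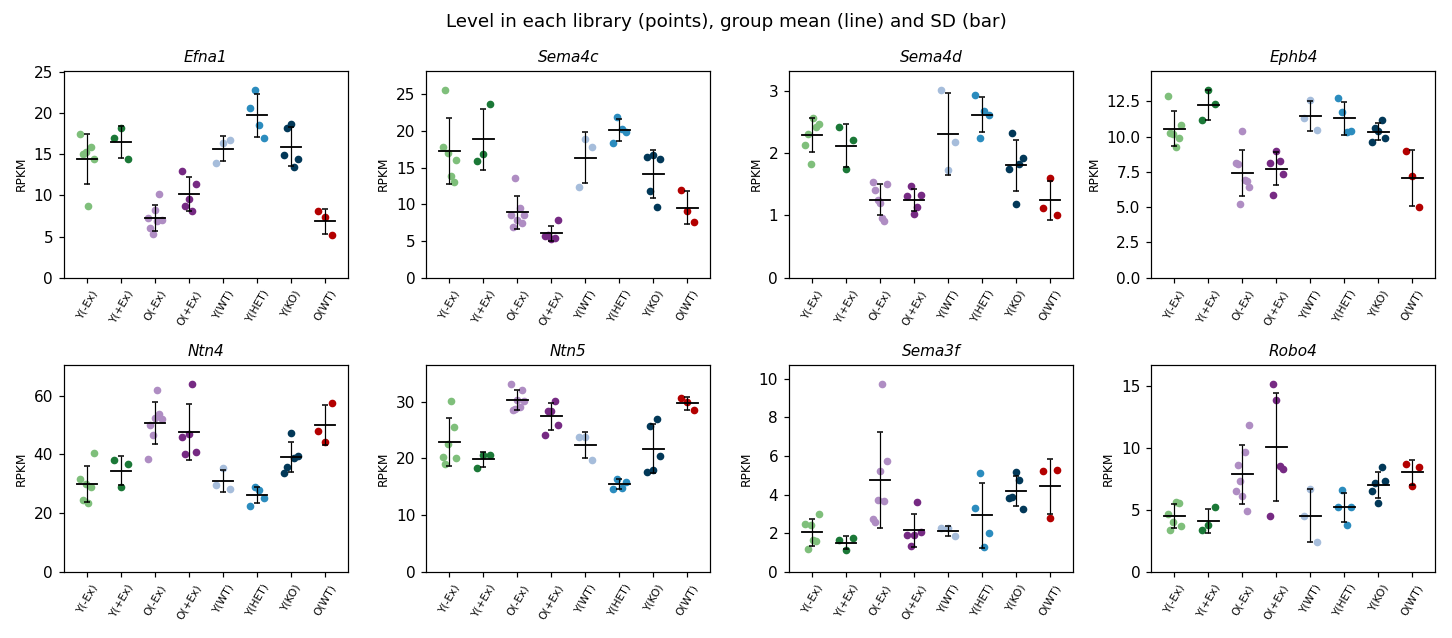
Level in RPKM of 8 genes called for age in the wheel cohort, in each library (points) of the 8 groups, with the group mean (line) and SD (bar). In Efna1, Sema4d and Ephb4 all 3 groups of old mice have lower means than the 5 young groups, and in Ntn4 and Ntn5 they have higher means.

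The stretches of promoter next to the starts of 3 of the genes called in both cohorts are shown as examples. Their transcripts moved in opposite directions with age, Ephb4 down and Ntn4 and Robo4 up. Each is the sequence up to 250 bases before the RefSeq start (GRCm38.p6, plus strand), without bases that a GENCODE exon covers (the Ntn4 window lies in an intron of a longer GENCODE transcript), and capitals mark the letters GGGCGG (the GC box) or CAGCTG (an E-box of the kind MyoD binds), on either strand.
Ephb4 promoter, chr5:137349859-137350108: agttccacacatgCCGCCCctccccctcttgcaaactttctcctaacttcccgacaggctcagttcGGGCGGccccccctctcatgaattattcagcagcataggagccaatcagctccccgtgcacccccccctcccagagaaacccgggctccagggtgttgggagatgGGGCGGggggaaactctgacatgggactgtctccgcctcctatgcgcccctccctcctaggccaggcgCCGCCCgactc
Ntn4 promoter, chr10:93640799-93641048: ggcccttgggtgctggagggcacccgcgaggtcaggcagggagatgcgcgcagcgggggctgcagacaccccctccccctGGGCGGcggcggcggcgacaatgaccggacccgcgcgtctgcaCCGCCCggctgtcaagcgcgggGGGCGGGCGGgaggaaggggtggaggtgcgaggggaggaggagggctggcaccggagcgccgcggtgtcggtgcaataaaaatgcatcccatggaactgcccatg
Robo4 promoter, chr9:37401722-37401896: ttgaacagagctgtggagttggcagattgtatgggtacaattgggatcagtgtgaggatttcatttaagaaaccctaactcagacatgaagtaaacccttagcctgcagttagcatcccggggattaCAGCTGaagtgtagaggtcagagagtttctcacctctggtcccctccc
The Ephb4 and Ntn4 windows hold 4 matches to GGGCGG each, 2 of them overlapping in Ntn4, and the Robo4 stretch holds 0 of them and 1 CAGCTG. Their GC content was 64.0%, 73.2% and 47.4%. The stretches of Sema4d (131 bases), Sema6b and Sema6d, which also fell in both cohorts, are not shown and held 0, 1 and 1 GGGCGG. RefSeq promoter windows were found for 35 of the 40 genes (47 windows, 250 bases before each start), and 76.6% of these windows held GGGCGG or its complement, against 32.7% of all 32851 windows. The median GC content was 64.0% in the guidance gene windows and 52.4% in all windows. CAGCTG was in 14.9% against 13.0%, CAGGTG in 14.9% against 17.2% and TGANTCA in 6.38% against 6.75%, both strands searched. The 32851 windows were not limited to genes of the deposited table, so these shares do not compare guidance genes with the other measured genes. No window of Sema3b, Sema3f, Sema6a, Ntn1 or Plxna1 was matched.

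In old mice a free wheel changed 6 of the 40 genes against the locked wheel, 1 higher and 5 lower, where 7.39% of all genes were called, 4.09% higher and 3.3% lower. Nrp1, the co-receptor of class 3 semaphorins and VEGF, rose. The cues Sema3f, Slit3 and Efnb2 and the membrane semaphorins Sema6a and Sema4c fell. The median difference was -0.02 on the log2 scale over the 40 genes and -0.01 over all genes.

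Nrp1 (ENSMUSG00000025810, chromosome 8, 128358604 to 128503363, plus strand) had 6.03, 7.89 and 8.74 RPKM (lowest, median, highest) in O(-Ex) and 12.1, 9.21, 11.0, 10.5 and 8.91 in the O(+Ex) libraries. All free-wheel libraries lay above all locked-wheel ones, which held for 2 of the 40 genes in either direction and 3.94% of all genes. The difference was 0.46 ± 0.11 (log2, SE), or 1.37-fold (adjusted p = 0.020). It was no longer called without O(+Ex) replicate 1 or without O(+Ex) replicate 3.

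Sema6a had 22.5, 25.0 and 26.2 RPKM in O(-Ex) and 19.8, 22.4, 19.6, 19.8 and 20.1 in O(+Ex). It was the other gene without overlap, with every free-wheel library lower, and fell by 0.27 ± 0.08 (log2, adjusted p = 0.034). Sema4c, already low in old mice, went from 6.85, 8.50 and 13.6 (lowest, median, highest) to 5.72, 5.87, 5.33, 5.36 and 7.89, a change of -0.54 ± 0.17 (adjusted p = 0.049).

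Sema3f, which had risen with age, was at 2.58, 3.74 and 9.73 RPKM in O(-Ex) and at 1.90, 1.32, 1.93, 3.62 and 2.05 in O(+Ex), and fell by 1.08 ± 0.30 (adjusted p = 0.032). Most free-wheel libraries were below the lowest locked-wheel one and the groups overlapped through a single library at 3.62. Slit3, the Slit ligand of Robo receptors, was at 0.477, 1.77 and 3.32 in O(-Ex) and at 0.223, 0.527, 0.515, 0.951 and 0.368 in O(+Ex), and fell by 1.43 ± 0.43 (adjusted p = 0.046). With 1 RPKM added before taking logs Slit3 changed by -0.66 and was not called (adjusted p = 0.053). Efnb2 was at 7.00, 8.73 and 11.0 and at 9.01, 4.99, 5.80, 8.26 and 5.83, and fell by 0.46 ± 0.14 (adjusted p = 0.0495).

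The old wheel count depended on single mice. It fell to 3 or fewer without any 1 of the libraries other than O(-Ex) replicate 6 (7 called) and O(+Ex) replicate 4 (4 called), to 1 without O(-Ex) replicate 5 and to 0 without O(+Ex) replicate 3. Nrp1 kept its call in 10 of the 12 omissions. Sema3f lost it in 7, Sema6a in 8, and Slit3, Sema4c and Efnb2 in 9 each. The 12 endothelial markers, among which Kdr encodes a VEGF receptor that pairs with Nrp1, summed to 149 to 213 RPKM in O(-Ex) and 208 to 279 in O(+Ex) (3 higher, 0 lower), and those of pericytes and smooth muscle to 224 to 280 and 263 to 324 (1 higher, 3 lower). Their part in the changes of Nrp1 and Efnb2 was not tested.

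In young mice 0 of the 40 genes were called for the wheel by limma, where 1.12% of all genes were, and 4 of the 40 had an unadjusted p under 0.05 (1796 of all genes). Efnb2 came nearest, with 6.52, 7.26 and 8.92 RPKM in Y(-Ex) and 5.29, 3.93 and 4.82 in Y(+Ex). Every free-wheel library was below every locked-wheel one, as for 3 of the 40 genes in either direction and 9.55% of all genes, and the difference was -0.67 ± 0.17 (adjusted p = 0.0535). It was called when Y(-Ex) replicate 3 was left out. Nrp1 had 6.48, 7.74 and 10.5 in Y(-Ex) and 10.8, 10.4 and 10.6 in Y(+Ex), a difference of 0.43 ± 0.14 (adjusted p = 0.12), and Sema6a had -0.25 ± 0.09 (adjusted p = 0.17).

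The wheel difference in old mice minus that in young mice was tested for each gene, and 0 of the 40 were called (limma, 0.00882% of all genes, 2 of the 40 and 960 of all genes at an unadjusted p under 0.05). For Nrp1 the wheel differences of both ages were 0.03 apart [-0.34, 0.40], for Sema6a -0.02 [-0.26, 0.23] and for Efnb2 0.21 [-0.24, 0.67] on the log2 scale. Unc5a had the lowest p, with a wheel difference of -0.71 ± 0.27 in old and 0.59 ± 0.33 in young mice, which were -1.29 ± 0.43 apart (adjusted p = 0.43). Its levels were low, at 0.749, 1.50 and 2.07 RPKM in O(-Ex), 0.594, 0.828, 1.06, 0.580 and 1.00 in O(+Ex) and 1.03, 1.07 and 1.03 in Y(+Ex). Sema4c followed, at -0.54 ± 0.17 in old and 0.14 ± 0.20 in young mice, -0.69 ± 0.26 apart (adjusted p = 0.52).

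**Figure D4:**
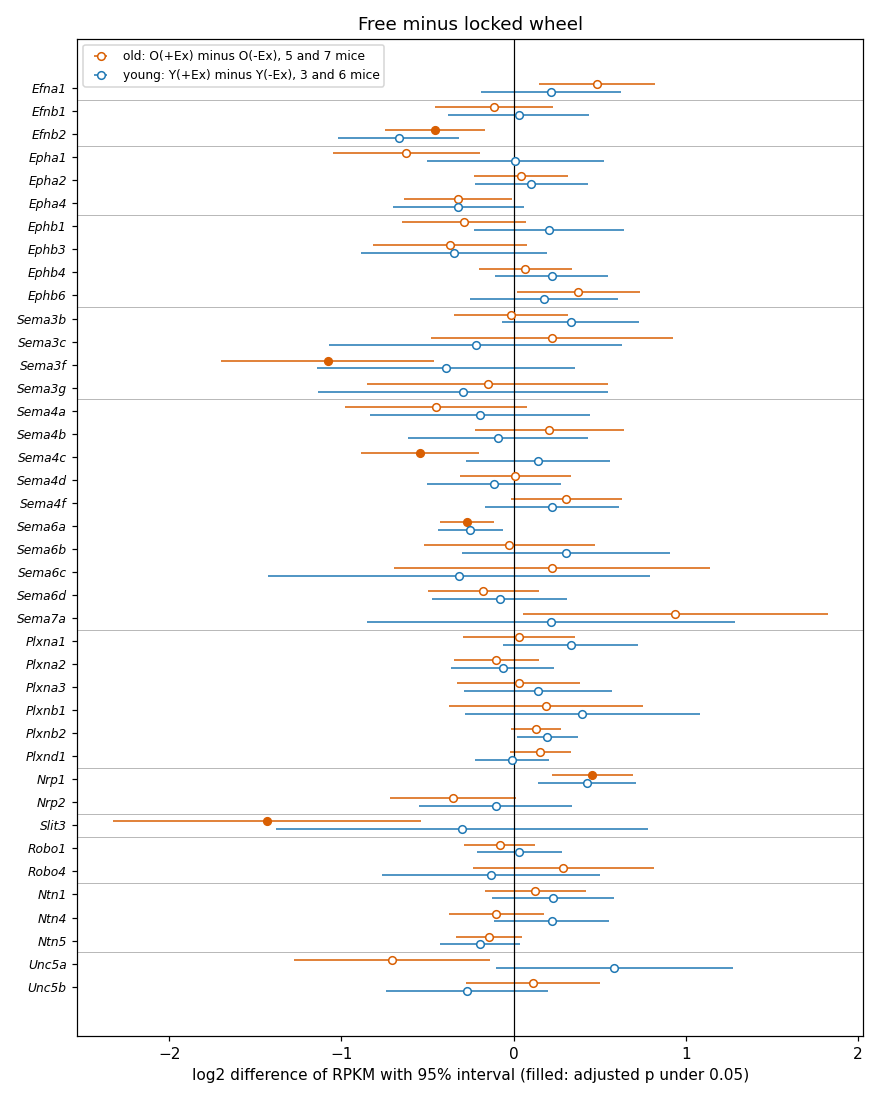
Difference between a free and a locked wheel in log2 RPKM with its 95% interval, in old mice (5 and 7) and young mice (3 and 6); filled points have an adjusted p under 0.05. Nrp1 lies right of 0 and Efnb2 and Sema6a left of it at both ages, while only the old mice have filled points.

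Several genes called for the wheel in old mice had also been called for age, and both comparisons use the O(-Ex) libraries. Sema3f differed by 1.15 between O(-Ex) and Y(-Ex) and by -1.08 between O(+Ex) and O(-Ex), and its O(+Ex) mean of 2.16 RPKM stood beside 2.05 in Y(-Ex). For Sema4c the differences were -0.95 and -0.54 and for Sema6a -0.31 and -0.27, so the O(+Ex) means of 6.03 and 20.3 RPKM were the lowest of the 8 groups. Efna1, lower with age by 0.99, had a wheel difference of 0.48 ± 0.16 in old mice that was not called (adjusted p = 0.071).

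Ccnd1, which encodes the G1 cyclin D1, was deleted in MuSCs of young mice. In each genotype comparison the share of guidance genes called was near that of all genes. Between Y(KO) and Y(WT) 2 of the 40 were called, 0 higher and 2 lower, against 6.99% of all genes (5.05% higher, 1.94% lower). Plxnb2 had 17.1, 15.7 and 15.8 in Y(WT) and 12.3, 14.0, 13.2, 13.4 and 10.6 in Y(KO), and fell by 0.36 ± 0.09 on the log2 scale (adjusted p = 0.037, limma). Sema6a had 33.3, 30.0 and 28.8 in Y(WT) and 25.3, 26.6, 21.4, 21.2 and 23.1 in Y(KO), and fell by 0.39 ± 0.11 (adjusted p = 0.047). In both genes every Y(KO) library was below every Y(WT) one, as groups did not overlap for 4 of the 40 genes and 17.8% of all genes. The Y(HET) means lay between, with libraries at 14.2, 14.7, 14.2 and 12.3 for Plxnb2 and 23.3, 24.8, 27.2 and 25.4 for Sema6a, and were not called against Y(WT) (-0.23 ± 0.10 and -0.29 ± 0.11).

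Against Y(WT), Y(HET) mice had 1 gene higher and 1 lower, where 5.39% of all genes were called (1.98% higher, 3.4% lower). Nrp2, the neuropilin that binds Sema3f, had 2.01, 1.36 and 1.98 RPKM in Y(WT) and 2.39, 2.95, 2.56 and 2.48 in Y(HET), and rose by 0.56 ± 0.15 (adjusted p = 0.042). Ntn5 had 23.7, 23.7 and 19.7 in Y(WT) and 14.7, 16.4, 14.8 and 15.9 in Y(HET), and fell by 0.53 ± 0.14 (adjusted p = 0.042). Neither gene's groups overlapped, as for 7 of the 40 and 21.2% of all genes. In Y(KO), Nrp2 had 2.32, 2.21, 2.17, 2.24 and 2.27 RPKM, 0.35 ± 0.14 above Y(WT) (adjusted p = 0.13), and Ntn5 had 17.7, 25.7, 18.0, 26.9 and 20.5, -0.06 ± 0.13 from it.

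Between Y(KO) and Y(HET) 2 of the 40 were called, both of them netrins and both higher in Y(KO). Of all genes 6.04% were called, 5.15% higher and 0.891% lower. Ntn4 had 22.6, 29.0, 27.8 and 25.3 RPKM in Y(HET) and 33.8, 35.9, 47.3, 38.8 and 39.5 in Y(KO). The groups were well apart, as for 4 of the 40 genes and 10.1% of all genes that did not overlap, and Ntn4 rose by 0.57 ± 0.11 (adjusted p = 0.011). Ntn5 rose by 0.47 ± 0.12 (adjusted p = 0.034), and Ntn1 had a difference of 0.42 ± 0.19 that was not called (adjusted p = 0.20). Ntn4 in Y(WT), at 29.6, 35.3 and 28.2 RPKM, overlapped both groups and was called against neither.

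**Figure D5:**
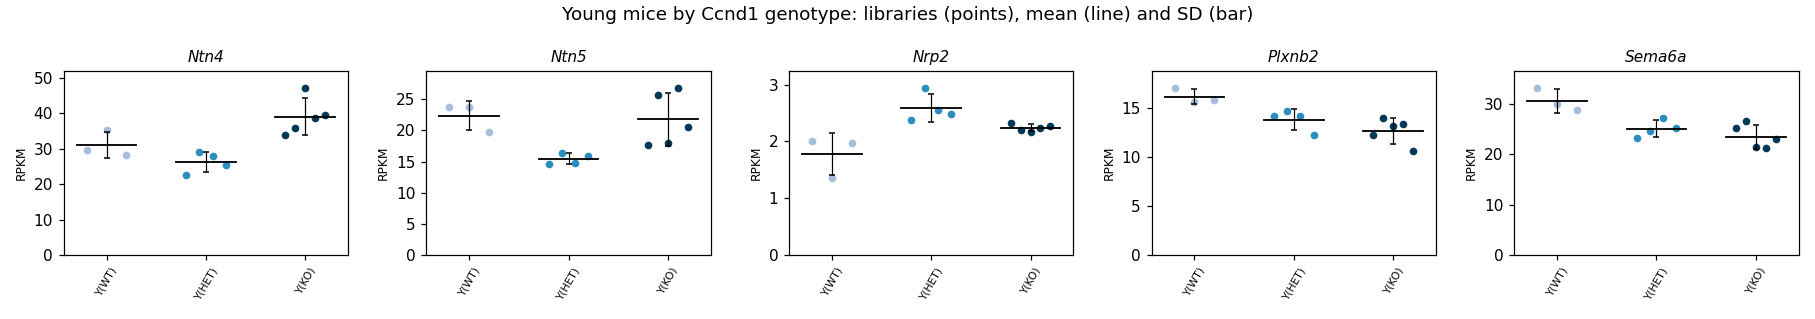
Level in RPKM of the 5 genes called between Ccnd1 genotypes in each library of young mice (points), with the group mean (line) and SD (bar). Plxnb2 and Sema6a are highest in Y(WT), and Ntn4 and Ntn5 are lowest in Y(HET).

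The Y(HET) libraries also carried keratinocyte transcripts. The 9 measured keratinocyte markers summed to 91.5 to 216 RPKM in Y(HET), 6.76 to 8.29 in Y(WT) and 5.31 to 9.39 in Y(KO), and all 9 were called higher in Y(HET) than in Y(WT) and lower in Y(KO) than in Y(HET). Of the 12 satellite cell markers 0 were higher and 2 lower in Y(HET) against Y(WT), and 2 higher and 0 lower in Y(KO) against Y(HET). The part of these markers in the Nrp2, Ntn4 and Ntn5 differences was not tested. With median-of-ratios scaling Ntn5 was called in neither comparison (adjusted p = 0.058 against Y(WT) and 0.088 against Y(KO)), and the share of all called genes that were higher went from 36.8% to 59.3% for Y(HET) against Y(WT), from 85.3% to 62.1% for Y(KO) against Y(HET) and from 72.3% to 62.1% for Y(KO) against Y(WT).

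Of the contrasts of Y(KO) and Y(HET) with Y(WT), 38.3% and 35.1% lie in the removed directions, which the fits did not account for. The contrast of Y(KO) with Y(HET) has 3.4e-17% there, in effect none. The genotype calls also rested on single libraries. Plxnb2 and Sema6a were both lost when Y(WT) replicate 1 or 3 or Y(KO) replicate 1, 3 or 5 was left out, and also without Y(WT) replicate 2, where Robo4 was called instead (1.07, adjusted p = 0.049). Without Y(KO) replicate 4 Plxnb2 alone was called, and both were without Y(KO) replicate 2. For Y(HET) against Y(WT) 0 genes were called without Y(WT) replicate 2 or 3 or Y(HET) replicate 1, 2 or 4, Nrp2 alone without Y(WT) replicate 1, and without Y(HET) replicate 3 only Efnb1, a transmembrane ephrin (0.68, adjusted p = 0.031). Nrp2 thus kept its call in 1 of 7 omissions and Ntn5 in 0. Between Y(KO) and Y(HET) Ntn4 was called whichever library was left out, and it was the only one of the 2 left without Y(HET) replicate 1, 3 or 4 or Y(KO) replicate 2, 4 or 5.

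Genes that work with these cues were counted in 2 further lists. Of 24 other guidance ligands and receptors (such as glypicans, repulsive guidance molecules and VEGF with its receptors), 17 were measured. With age in the wheel cohort 5 were higher and 4 lower, where 20.5% and 17.8% of all genes were: the glypican Gpc1 rose by 0.51 ± 0.12 (log2, adjusted p = 0.0021), the receptor Met rose by 0.46 ± 0.12 (adjusted p = 0.0040), the glypican Gpc4 fell by 0.67 ± 0.11 (adjusted p = 9.6e-05) and the hedgehog co-receptor Boc fell by 0.60 ± 0.08 (adjusted p = 7.9e-06). In the Ccnd1 cohort 1 was higher and 2, again Gpc4 and Boc, lower (8.03% and 7.76% of all genes). With the wheel in old mice 2 were higher and 1 lower (4.09% and 3.3% of all genes): Gpc1 by 0.63 ± 0.13 (adjusted p = 0.0060), Kdr by 0.93 ± 0.27 (adjusted p = 0.043) and Vegfa, a ligand that Nrp1 also binds, by -0.42 ± 0.07 (adjusted p = 0.0025). In young mice, where 0.714% of all genes were lower, Vegfa alone was called, at -0.57 ± 0.09 (adjusted p = 0.0039). By genotype the list had 2 higher and 1 lower in Y(KO) against Y(WT) (5.05% and 1.94% of all genes), 1 and 2 in Y(HET) against Y(WT) (1.98% and 3.4%), and 2 and 0 in Y(KO) against Y(HET) (5.15% and 0.891%), where Rgmb and Rgma rose by 0.64 ± 0.11 and 0.45 ± 0.09.

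The second list held 59 cytoplasmic effectors of Eph, plexin and Robo receptors, 51 of them measured. With age in the wheel cohort 11 were higher and 17 lower (20.5% and 17.8% of all genes): the kinase Pak1, which acts on the actin skeleton, rose by 1.16 ± 0.13 (log2, adjusted p = 6.9e-07) and the small GTPase Rnd1 by 0.67 ± 0.14 (adjusted p = 0.00059), whereas the kinase Gsk3b fell by 0.55 ± 0.08 (adjusted p = 2.35e-05) and the actin-severing Cfl2 by 0.36 ± 0.06 (adjusted p = 0.00015). In the Ccnd1 cohort 2 were higher and 9 lower (8.03% and 7.76% of all genes). With the wheel 0 were called in old mice (7.39% of all genes) and 1 in young mice (1.12%), the collapsin response protein Dpysl3, which rose by 1.11 ± 0.27 (adjusted p = 0.044). Y(KO) against Y(WT) gave 2 higher and 2 lower (5.05% and 1.94% of all genes), Y(HET) against Y(WT) 3 and 2 (1.98% and 3.4%), and Y(KO) against Y(HET) 1 and 0 (5.15% and 0.891%).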

How the data were processed

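RNA of FACS-sorted MuSCs was sequenced in 36 libraries. The submitters' processing notes name Trim Galore, STAR, featureCounts, Subread and the mm10 build, without versions or a strand setting. The authors deposited 1 table of 11337 genes in RPKM, with no zeros, beside a score, their correlation coefficient of each gene with Ccnd1. The unit was read from the values: multiplied by exon length in kb, each library's RPKM came to a total of 958293 to 1204774. The rank of the centred log2 matrix was 29 where 35 is the largest possible, which shows an adjustment by a method that the sources used here do not give. Because the values were adjusted, no count test was used.

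Groups follow the sample titles, with each mouse a replicate. Models with 1 mean per group were fitted to log2 RPKM within each cohort, without a pseudocount, with limma 3.58.1 (statmod 1.5.0, R 4.3.3; eBayes with trend and robust), with Benjamini-Hochberg adjustment across all 11337 genes. The call threshold was an adjusted p of 0.05, and the fit was checked on simulated data. These were drawn independently for each library, without the removed directions, so the check cannot show how calls behave on the adjusted values. In each comparison up to 4 called genes in each direction with the lowest p are given in full, or the 2 with the lowest p where none was called; the remaining calls are given as differences. Of the contrast vectors, 28.4% (age, wheel cohort), 61.2% (age, Ccnd1 cohort), 12.0% (wheel, old), 10.2% (wheel, young), 10.4% (wheel, old minus young), 38.3% (KO against WT), 35.1% (HET against WT) and 3.4e-17% (KO against HET) of the squared length lie in the removed directions. The fits did not account for these removed directions, so the SEs and adjusted p may understate the spread between mice. The members, lists and tests were chosen with earlier results of these data known. Python 3.11.15 with pandas 2.3.3 and matplotlib 3.10.9 drew the figures.

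Alternatives were a pseudocount of 1 RPKM, a minimum mean of 1 RPKM, median-of-ratios scaling, plain eBayes, only the groups compared, a replicate block and leaving out each library. Without strand, antisense and overlapping genes cannot be told apart.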

Additional observations from a re-analysis of the deposited data

Results flagged for a closer look

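Within groups of 4 to 7 libraries, 6 of the 85 sets of values of the 17 genes named in full held a library far from its neighbours (Dixon's 95% limit); chance gives about 1 in 20. Efna1 was at 8.66 RPKM in Y(-Ex) replicate 4, where the nearest library had 14.4, and Plxnd1 was at 15.5 RPKM in the same mouse, next to 13.1. Sema4c was at 13.6 RPKM in O(-Ex) replicate 3 (nearest 9.44) and at 7.89 in O(+Ex) replicate 5 (nearest 5.87). Nrp2 was at 3.45 RPKM in O(-Ex) replicate 5 (nearest 2.07) and Sema6a at 22.4 in O(+Ex) replicate 2 (nearest 20.1). The age calls of Efna1, Sema4c and Plxnd1 in the wheel cohort held without each of these libraries. The wheel call of Sema4c in old mice was lost without O(-Ex) replicate 3 (-0.44, adjusted p = 0.083) and held without O(+Ex) replicate 5 (-0.64, adjusted p = 0.034), and that of Sema6a held without O(+Ex) replicate 2.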

How the results depend on the processing

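No named difference changed direction under any alternative. Of 171 values under other settings 147 kept their status, called or not called, and 24 lost a call. Of 308 values with 1 library left out 231 kept their status, 76 lost a call and 1 gained one. The kept values include differences that had no call to lose. These were Efnb2 and Nrp1 for the wheel in young mice (9 omissions each) and Unc5a and Sema4c for the difference between ages (21 omissions each). The number of guidance genes called was 4 instead of 8 for age in the Ccnd1 cohort with only the 2 groups compared. For the wheel in old mice it was 3 instead of 6 with plain eBayes, 3 with only the 2 groups compared and 3 with the replicate block. For KO against WT it was 1 instead of 2 with plain eBayes, 1 with only the 2 groups (Sema3f, which was higher, and neither of the 2) and 0 with the replicate block, where 1 gene in the whole table was called. For HET against WT it was 1 instead of 2 with plain eBayes, with only the 2 groups and with the replicate block. For KO against HET it was 1 instead of 2 with median-of-ratios scaling and with only the 2 groups. Leaving out each library gave 14 to 18 for age in the wheel cohort, 4 to 6 for age in the Ccnd1 cohort, 0 to 7 for the wheel in old mice, 0 to 1 in young mice, 0 to 0 for their difference, 0 to 2 for KO against WT, 0 to 1 for HET against WT and 1 to 3 for KO against HET. The cause of these losses was not tested, beyond the smaller number of libraries. Shared replicate numbers showed little sign of pairing the mice in the values as deposited. Deviations of same-numbered libraries correlated at -0.23 to 0.30 in the wheel cohort (mean 0.01, 7 of 25 pairs over 0.1). In the Ccnd1 cohort they correlated at -0.26 to 0.13 (mean -0.01, 1 of 19 pairs over 0.1). In the 2 cohorts 5 of 20 and 1 of 14 libraries correlated best with their own number. A pairing within the removed directions could not be seen, so whether the block follows a pairing is unknown. For the wheel in young mice all called genes numbered 22 with only the 2 groups, 14 with the block and 84 with plain eBayes, against 127, and for the difference between ages 2 with the pseudocount against 1. For KO against WT they numbered 379 with only the 2 groups against 793, for HET against WT 300 with only the 2 groups and 179 with the block against 611, and for KO against HET 327, 262 with the block and 343 with median-of-ratios scaling against 685. Values keep no counts, so depth sets no interval for genes near 1 RPKM such as Slit3, Unc5a and Sema7a.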
